A study of Mus musculus with 18 samples.

Results

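The comparison set mouse plasmacytoid dendritic cells (pDCs) after 16 h with imiquimod against the same kind of cells at the start of the experiment, given vehicle and collected at 0 h. It took 3 libraries per group, 6 of the 18 libraries of the series, chosen by their labels, and all genes of the count table. All groups were wild-type C57BL/6 cells, with no allele or transgene named. Bone marrow was differentiated for 7 days in Flt3 ligand at 80 ng/mL, and pDCs were enriched with beads against B220, a surface protein, with a usual purity of 80%. The cells then stood in 96-well plates with imiquimod at 2.5 µg/mL or with the vehicle, labelled LAL. No label ties a library to its own culture or mouse, so the p-values reflect variation among these libraries, and that variation may be technical. The 2 groups differ in both agent and time in culture. The 3 vehicle libraries at 16 h were therefore read beside them. They tell genes that rose above the starting level from genes that ended near it while falling in vehicle.

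A pDC detects viral RNA and DNA in its endosomes through the Toll-like receptors TLR7 and TLR9. Imiquimod is a small synthetic agonist of TLR7. The receptor signals through the adaptor MyD88 to the transcription factor IRF7, which drives type I interferon genes, and to NF-kappaB, which drives inflammatory cytokines and maturation genes. Secreted interferon acts back on the cells and switches on interferon-stimulated genes through STAT factors. Cells taken from a growth culture and replated also change with no agonist, through handling, nutrients, growth factor supply and the cell cycle.

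Total counts per library ran from 10609741 to 13447018, and 14876 of 54532 genes passed the expression filter. Between replicates the biological coefficient of variation was 3.08%, so that very small differences passed the test. Counts from rRNA genes and 3 rRNA-like genes made up 10.8 to 11.4% of the vehicle libraries at 0 h and 11.9 to 13.2% of the imiquimod libraries at 16 h, against 16.9 to 17% in vehicle at 16 h. With these genes left out of the fit, 5758 genes were higher than the start and 5461 lower, 1602 were induced and 109 held near the start, in place of the counts given below. The pDC label was checked against 10 pDC markers. None was at 0 in any group, and their summed level ran from 5589 to 5739 CPM (read counts scaled to a common library size with TMM factors) at the start, from 6604 to 6679 in vehicle at 16 h and from 2749 to 2807 with imiquimod. Markers of other dendritic cells were present at the start. The 13 markers of conventional dendritic cells type 1 (cDC1) summed to 3604 to 3718 CPM, most of it Irf8, which pDCs also express, and Wdfy4. With imiquimod at 16 h they summed to 3034 to 3090. Of the 13, 11 were lower and 2 higher, with a median of -2.12. The sum at 16 h held a mean of 872.5 CPM from Cd36, which stood at 18.7 at the start. The 12 cDC2 markers went from 1017 to 1039 CPM at the start to 302 to 306. The 16 monocyte and macrophage markers went from 1832 to 1845 CPM to 146 to 161, the starting level being mostly Ccr2 and Lyz2; of 12 tested, 6 were lower, 3 higher and 3 not called, with a median log2 fold change of -0.22. The 16 B cell markers went from 1373 to 1385 CPM to 1766 to 1824, with Ighm as the largest part, while 9 of 13 tested were lower and 4 higher, with a median of -0.41. Erythroid markers (10 listed) summed to at most 3.51 CPM in any library of the 3 groups, and neutrophil and mast cell markers (16 listed) to at most 8.58. The 14 T and NK cell markers summed to 389 to 405 CPM at the start and 293 to 310 with imiquimod, most of it Il7r. Of 7 tested, 3 were higher, 3 lower and 1 not called, with a median of -0.1. Cd3d, Cd3e and Cd3g had 3, 6 and 1 counts at the start and 1, 4 and 0 with imiquimod. In bulk RNA, fewer cells of a type and less RNA per cell cannot be told apart, and the part of other cells in the results below was not tested.

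Most of the transcriptome differed between the starting state and 16 h of imiquimod. At an adjusted p under 0.05 in edgeR's quasi-likelihood test, 5766 genes were higher (38.8% of those tested) and 5472 lower (36.8%), together 75.5%. Counts of higher and lower members of gene and marker lists are to be read beside these shares. A change of at least 2-fold was called for 2157 genes upward (14.5%) and 2426 downward (16.3%). In vehicle over the same 16 h, 28.4% were higher and 30% lower, with 832 genes up at least 2-fold (5.59%) and 926 down (6.22%). The 3 imiquimod libraries did not overlap the 3 starting libraries for 77.8% of the genes. The median log2 fold change of all tested genes was 0.02 in the net comparison and 0 in vehicle.

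Between imiquimod and vehicle at 16 h, 77.2% of genes differed, with 39.1% higher. Each gene that differed at least 2-fold there was then placed by where it stood against the start. These comparisons share libraries, and the net change is the sum of the vehicle change and the imiquimod effect, so the counts below follow from the definitions and are no tests of each other. A gene was called induced where it was called at least 2-fold above vehicle at 16 h and at least 2-fold above the start. Of 2470 genes above vehicle (16.6% of those tested), 1613 were induced. Among the induced, 1262 changed less than 2-fold or were not called in vehicle, 221 also rose at least 2-fold in vehicle, and 130 fell at least 2-fold in vehicle. A gene was called held near the start where vehicle fell at least 2-fold and the 95% interval of its net change (limma-voom) lay within 1.5-fold of 0 h. That applied to 110 genes, 4.45% of those above vehicle. Another 15 ended at least 2-fold below the start although above vehicle, here named a slowed fall by level at 16 h, not by rate. The remaining 732 fell between these classes, 200 of them with a vehicle fall of at least 2-fold. Of those 200, 105 were called higher than at the start, 41 lower and 54 neither. On the other side, 2498 genes were below vehicle (16.8%). Of these, 1881 were repressed below the start and 18 were held near it while vehicle rose. Another 14 rose less than in vehicle, a slowed rise by the same naming.

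Read from the vehicle side, 926 genes fell at least 2-fold in culture alone. With imiquimod, 130 of them ended at least 2-fold above the start, 127 within 1.5-fold of it and 377 at least 2-fold below it. Of the 832 genes that rose in vehicle, 455 ended at least 2-fold above the start with imiquimod, 28 within 1.5-fold and 74 at least 2-fold below. Of the 2157 genes with a net rise of at least 2-fold, 74.8% were also at least 2-fold above vehicle at 16 h.

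**Figure D1:**
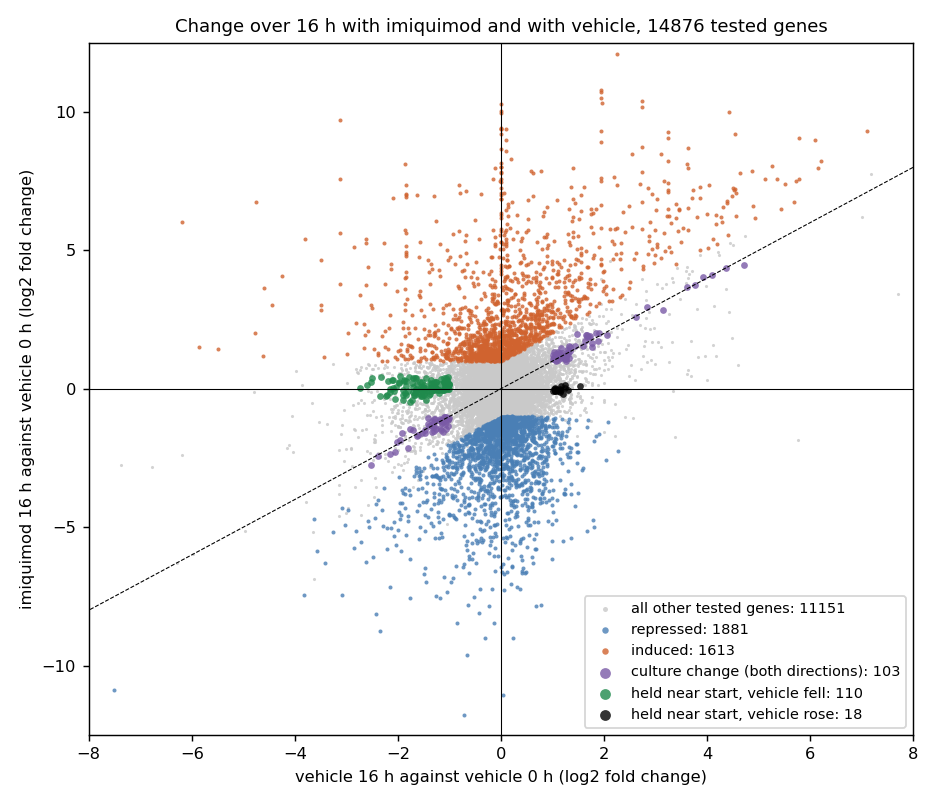
Each point is a tested gene, with its log2 fold change over 16 h in vehicle on the x axis and with imiquimod, against the same vehicle libraries at 0 h, on the y axis. Points on the dashed line changed alike in both arms. The 110 genes held near the start lie along y = 0 on the left, and the 1613 induced and 1881 repressed genes lie above and below.

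Il6, the gene of the inflammatory cytokine interleukin 6 (chromosome 5, 30013114 to 30019981), had the largest net rise among named genes with more than 3 counts at the start. It stood at 0.238, 0.247 and 0.0824 CPM in the 3 vehicle libraries at 0 h, at 0.735, 0.798 and 0.783 in vehicle at 16 h, and at 258, 251 and 258 with imiquimod. The groups were far apart, and the libraries of each lay close together except at the start, where the level rested on 7 counts. From the start it rose by 10.32 on the log2 scale (SE 0.12, adjusted p = 6.11e-75 in edgeR), of which 1.97 was seen in vehicle. Il12b, a subunit gene of interleukins 12 and 23, rose by 8.12 (SE 0.082), with 3.60 in vehicle. Oasl1, an interferon-induced regulator of the antiviral response, rose by 8.28 (SE 0.11), Tgtp1, an interferon-induced GTPase gene, by 7.97 (SE 0.19), and Ifit1, which encodes a binder of foreign RNA, by 7.87 (SE 0.12). None of these last 3 was called in vehicle. Tgtp1 and Ifit1 have near-identical relatives, so their reads may be shared.

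Fscn1, the gene of the actin-bundling protein fascin found in mature dendritic cells, stood at 6.12, 6.91 and 7.66 CPM at the start, at 187, 164 and 162 in vehicle and at 1520, 1520 and 1600 with imiquimod. All 3 groups were apart. Its net rise of 7.81 (SE 0.059) was thus made up of 4.63 in vehicle and 3.18 between the arms. Bcl2a1a, a prosurvival BCL2 family gene with close copies, rose by 8.48 (SE 0.19), with 3.10 in vehicle, and Oprd1, the delta opioid receptor gene, by 8.04 (SE 0.22), with 5.27 in vehicle.

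Antibody constant region genes were among the highest. Ighg2c, a heavy chain gene of IgG, had 2 counts over the 3 libraries at the start, 10 in vehicle at 16 h and 11034 with imiquimod, a ratio to the start of 5160 (exact 95% interval 1430 to 42600, counting error only). Ighg2b rose by 7.87 (SE 0.15), from 19 counts to 4857. Wfdc21, which encodes a small secreted protein, had 3 counts at the start, 0 in vehicle and 3049 with imiquimod, a ratio of 950 (325 to 4610). Trim43b, a TRIM family gene, had 1 count at the start and 1511 with imiquimod (ratio 1410, 253 to 55800). Pax5, the B cell master regulator and the only one of 13 tested B cell markers to rise at least 2-fold, went from 22.7, 22.3 and 22.6 CPM to 138, 133 and 128. Cd79a, a subunit gene of the B cell receptor, was among the 9 that fell, at -1.09.

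Promoter sequences of 3 induced genes are shown because they carry the letters sought for the interferon and NF-kappaB arms. They are the 250 bases before the RefSeq start site, 5′ to 3′ on the gene's strand, from RefSeq's table for GRCm38.p6. Capitals mark matches to the core of the interferon response element (GAAA, any 2 bases, GAAA) or to a kappaB-like pattern (GGGA, any 2 bases, TTCC), each sought on both strands. In Isg15 the 3 interferon response matches overlap, beginning 78, 72 and 66 bases before the start. In Cxcl10 the interferon response match begins 213 and the kappaB-like match 159 bases before the start, and in Il6 the kappaB-like match begins 44 bases before it.
Isg15, GRCm38 chr4:156200819-156201068, minus strand: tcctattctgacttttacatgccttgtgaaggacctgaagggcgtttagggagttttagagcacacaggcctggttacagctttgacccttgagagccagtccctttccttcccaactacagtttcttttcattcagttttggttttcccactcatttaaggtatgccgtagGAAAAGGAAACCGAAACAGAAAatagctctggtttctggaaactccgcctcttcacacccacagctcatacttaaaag
Cxcl10, GRCm38 chr5:92348890-92349139, minus strand: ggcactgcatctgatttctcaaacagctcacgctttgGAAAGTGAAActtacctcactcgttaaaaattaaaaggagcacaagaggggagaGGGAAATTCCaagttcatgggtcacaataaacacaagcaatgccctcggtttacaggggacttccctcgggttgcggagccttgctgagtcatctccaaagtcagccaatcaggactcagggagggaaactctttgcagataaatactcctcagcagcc
Il6, GRCm38 chr5:30012864-30013113, plus strand: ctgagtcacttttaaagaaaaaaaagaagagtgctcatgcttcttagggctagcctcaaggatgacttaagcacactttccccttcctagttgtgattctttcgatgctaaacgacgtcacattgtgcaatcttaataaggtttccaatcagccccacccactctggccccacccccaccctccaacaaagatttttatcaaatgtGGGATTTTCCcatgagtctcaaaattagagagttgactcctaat

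Of 14875 tested gene symbols, 9841 had a promoter of 300 bases in that table, 250 before and 50 after the start. The interferon response core was in 4.01% of these, in 7.92% of the induced genes, in 5.62% of the genes held near the start and in 62% of 50 interferon-stimulated genes. The kappaB-like pattern was in 1.84% of all, 2.98% of induced, 2.25% of held genes and 25% of 20 cytokine and chemokine genes. These shares describe letters in a window and were not tested.

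Interferon-stimulated genes rose from the start nearly throughout. Of 66 tested, 61 were higher and 2 lower in the net comparison, with a median log2 fold change of 3.26 against 0.02 for all genes, and 54 were induced. In vehicle their median was 0.11. Isg15, the gene of a ubiquitin-like protein (chromosome 4, 156199424 to 156200818), stood at 1.11, 1.48 and 0.824 CPM at the start, 0.827, 1.68 and 0.87 in vehicle and 212, 191 and 224 with imiquimod. The vehicle groups overlapped, and the imiquimod group lay far above both, with a net change of 7.50 (SE 0.095, adjusted p = 2.26e-64). Irf7, the interferon regulatory factor of pDCs, rose from 52.3, 49.6 and 47.1 CPM to 546, 510 and 577. Ifitm1 and Ifitm2, which encode membrane proteins that restrict virus entry, were the 2 that fell, by -1.83 and -0.49. Both fell further in vehicle, by -2.47 and -1.44. Ifitm3 of the same family rose by 1.61 although it changed by -1.94 in vehicle. The interferon genes themselves stayed near 0. None of 20 type I and III interferon genes passed the filter, and their summed counts over 3 libraries were 7 at the start (all Ifnk), 1 in vehicle at 16 h and 18 with imiquimod at 16 h, with Ifnb1 at 4 and Ifnl2 at 7. At 6 h with imiquimod the sum was 49.

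Cytokine and chemokine genes had the highest median of any list, 4.47 (4.29 with genes at 0 counts set to their bound), with 23 of 27 tested higher and 2 lower. The list split by what vehicle did. Ccl3, which encodes the chemokine MIP-1 alpha, stood at 7.95, 10.9 and 8.40 CPM at the start, at 1.38, 1.51 and 0.87 in vehicle and at 322, 310 and 308 with imiquimod. The 3 groups did not overlap, and the order was vehicle, start, imiquimod. Its net change was 5.11 (SE 0.063), against 7.96 between the arms at 16 h. Ccl4, its neighbour in sequence and function, changed by 2.03 from the start and by 6.80 from vehicle, having changed by -4.77 in vehicle. Tnf, the gene of tumour necrosis factor, stood at 9.14, 8.80 and 9.48 CPM, then 1.56, 1.95 and 3.22 in vehicle and 109, 99.3 and 106 with imiquimod. Its net change of 3.52 (SE 0.075) was smaller than the 5.53 between the arms. For Cxcl10, a T cell chemokine gene (chromosome 5, 92346638 to 92348889), the level went from 0.318, 0.575 and 0.742 CPM to 61.2, 63.4 and 72.6, a net change of 6.89 (SE 0.14), and vehicle changed by -2.10 on 20 and 4 counts.

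Other chemokine genes rose in both arms. Ccl22, a chemokine gene of mature dendritic cells, stood at 6.76, 4.6 and 3.54 CPM at the start, at 79.5, 65.7 and 71.7 in vehicle and at 580, 605 and 584 with imiquimod. Its net change was 6.88 (SE 0.076), with 3.85 of it in vehicle. Ccl5, which attracts T cells, rose by 7.19 with 3.72 in vehicle. Il27, a subunit gene of interleukin 27, had 1 count at the start, 0 in vehicle and 246 with imiquimod (ratio to the start 230, 40.9 to 9120). Cxcl11 had 0 counts in both vehicle groups and 63 with imiquimod, at least 19.6-fold higher over a floor of 3 counts per group. The 2 that fell were Il12a (-3.76), the partner of Il12b in interleukin 12, and Ccl9 (-1.24). Cxcl2 and Il18 were not called, at 0.44 and -0.50.

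**Figure D2:**
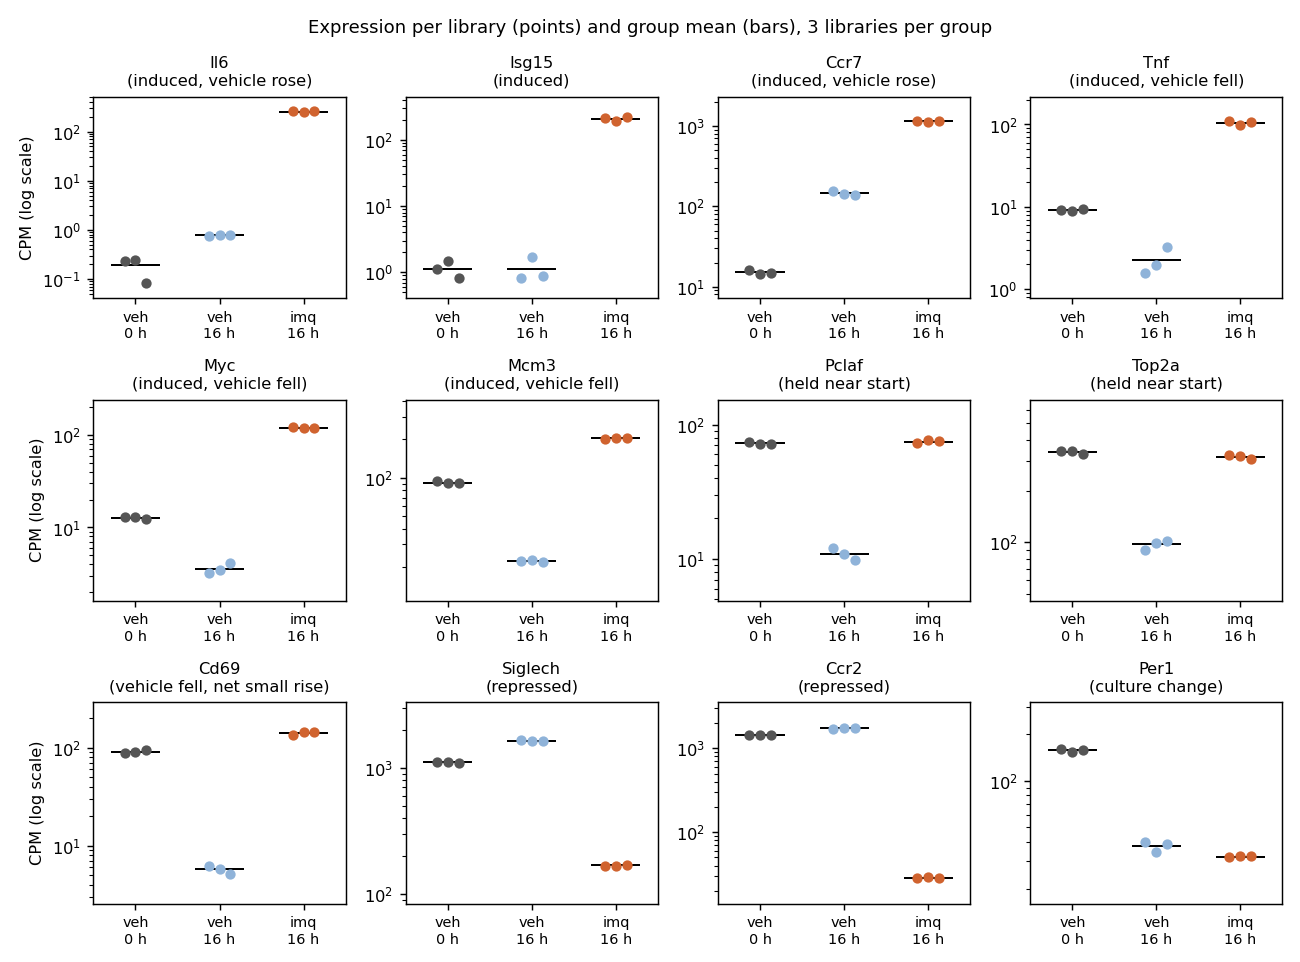
CPM on a log scale for 12 genes in the 3 libraries of vehicle 0 h, vehicle 16 h and imiquimod 16 h (points), with group means (bars). Tnf, Myc and Mcm3 fell in vehicle and ended above the start with imiquimod, Pclaf and Top2a ended near it, and Per1 fell alike in both arms.

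Of 28 NF-kappaB subunit and feedback genes, 23 were higher than at the start and 3 lower, with a median of 1.42. Traf1, a signalling adaptor gene of TNF receptors, rose by 5.21 (SE 0.048) from 16.9, 16.7 and 16.1 CPM to 617, 609 and 623, with 2.19 in vehicle. Relb, a subunit of the noncanonical pathway, rose by 3.21, Cflar, an inhibitor of caspase 8 activation, by 3.12, and Tnip1, a partner of the A20 inhibitor, by 3.03. The 3 that were lower changed little: Sod2 and Nfkbid by -0.20 each and Nfkb1 by -0.13.

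Maturation and co-stimulation genes were higher for 20 of 22 and lower for 2 (Slamf7 at -1.28 and Cd48 at -0.62), with a median of 2.94. Vehicle itself had a median of 0.54 in this list, the highest of the lists in that comparison among those with 5 or more genes tested. Ccr7, the receptor that guides dendritic cells to lymph nodes, stood at 16.0, 14.5 and 15 CPM at the start, at 157, 142 and 139 in vehicle and at 1160, 1120 and 1160 with imiquimod. The rise of 6.23 (SE 0.05) was made of 3.26 in vehicle and 2.97 between the arms. Cd40, the receptor for T cell help, rose by 5.53 (SE 0.062), with 1.5 in vehicle.

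The classical activation markers Cd86 and Cd69 behaved otherwise. Cd86, the co-stimulatory ligand of CD28, stood at 75.8, 75.7 and 80.1 CPM at the start, at 22.3, 21.1 and 22.4 in vehicle and at 106, 117 and 119 with imiquimod. The groups did not overlap. The difference between the arms at 16 h was 2.37 on the log2 scale, and the net change 0.56 (SE 0.044, adjusted p = 1.58e-19, 95% interval 0.47 to 0.65). Cd69, an early lymphocyte activation receptor, stood at 87.6, 90.9 and 93.4 CPM, at 6.25, 5.85 and 5.13 in vehicle and at 135, 144 and 144 with imiquimod. Its difference between the arms of 4.62 held a net change of 0.64 (SE 0.044). Both genes were far above the start at 6 h of imiquimod, Cd86 at 293, 299 and 298 CPM and Cd69 at 235, 247 and 244, and stood lower again at 16 h. Cd44 (net 0.55, vehicle -1.22) and Tnfsf9 (net 0.72, vehicle -1.18) showed the same order of groups.

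Among 20 checkpoint and regulatory genes, 14 were higher and 5 lower, with a median of 2.65. Cd274, the gene of the T cell inhibitory ligand PD-L1 (chromosome 19, 29367455 to 29388095), stood at 16.1, 18.4 and 19.0 CPM at the start, at 17.8, 19.4 and 19.1 in vehicle and at 383, 387 and 384 with imiquimod. The vehicle groups overlapped, and its net change was 4.43 (SE 0.05). Arg2 (7.38), Socs2 (7.25), Ido2 (7.18) and Il4i1 (4.68) rose most by log2, and all rose in vehicle too, by 5.50, 4.51, 4.53 and 2.18. They encode an arginase, a cytokine signalling inhibitor, a tryptophan-degrading enzyme and an amino acid oxidase. Havcr2, the gene of the inhibitory receptor TIM-3, was the lowest, at -2.85.

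All 22 MHC class I presentation genes tested were higher than at the start, with a median of 1.42 and a vehicle median of 0.05. H2-Q7 and H2-Q6, nonclassical class I genes that are near-identical copies, rose by 4.51 and 4.54. Nlrc5, the transactivator of class I genes, rose by 3.08. MHC class II presentation was divided, with 8 of 14 higher and 6 lower. H2-Ab1, the class II beta chain gene, stood at 807, 758 and 742 CPM at the start, at 558, 517 and 547 in vehicle and at 1310, 1210 and 1300 with imiquimod, a net change of 0.73 (SE 0.035). March1, the ubiquitin ligase gene that removes class II from the surface, fell by 1.96 (log2 -1.96), and H2-Ob and H2-DMa, which act in peptide loading, changed by -1.27 and -1.11. Lgmn, a lysosomal protease gene, rose by 1.15.

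The series concerns tumour killing by activated pDCs, so death ligands and effectors were read separately. Of 12 tested, 6 were higher and 4 lower, all by at least 2-fold (14.5% and 16.3% of all genes were by that much). Tnfsf10, the gene of the death ligand TRAIL, stood at 0.954, 1.07 and 1.57 CPM at the start, at 1.1, 2.22 and 2.61 in vehicle and at 8.41, 7.74 and 9.38 with imiquimod. The 2 vehicle groups overlapped, and the net change was 2.82 (SE 0.2, adjusted p = 4.96e-22). Lta, which encodes lymphotoxin alpha, rose by 6.99 (SE 0.19) from 11 counts to 1545. Nos2, whose product makes nitric oxide, had 0 counts at the start and 197 with imiquimod, at least 61.4-fold higher. Ifng had 1 and 195 counts, a ratio of 182 (32.3 to 7230). Klrd1, an NK receptor subunit gene also found in pDCs, fell by 5.45 (log2 -5.45). The granzyme gene Gzmb did not pass the filter.

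Of 31 BCL2 family and apoptosis genes, 18 were higher (38.8% of all genes) and 10 lower (36.8%). Bcl2l1, the gene of the survival factor BCL-XL, stood at 7.15, 9.70 and 8.49 CPM at the start, at 10.6, 10.1 and 8.88 in vehicle and at 131, 115 and 127 with imiquimod, a net change of 3.88 (SE 0.069). Bcl2, the founding survival gene of the family, took another course. It stood at 113, 115 and 118 CPM at the start, at 33.8, 32.8 and 38.3 in vehicle and at 86.2, 91.6 and 84.0 with imiquimod. It was thus 1.32 above vehicle and 0.40 below the start (net -0.40, 95% interval -0.49 to -0.31), one of the genes held near the start. The level was lower at 6 h with imiquimod, at 55.6, 55.9 and 54.0 CPM, than at 16 h. Fas, the death receptor gene, rose by 4.81, with 1.81 in vehicle, and Casp6, an executioner caspase gene, was the lowest of the list at -3.07.

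Genes that vehicle lost and imiquimod raised above the start numbered 130, with a median net change of 1.6 and a median vehicle change of -1.64. The named ones were Tnfsf15, a TNF family ligand gene (net 6.96, vehicle -1.31), Cxcl10, Gpr31b, a receptor gene (net 6.76, with 10, 0 and 1207 counts at the start, in vehicle and with imiquimod), Rsad2, the antiviral viperin gene (net 6.06, vehicle -1.26), Ccl3, and Oas1a, an RNA-sensing enzyme gene (net 4.65, vehicle -1.03). Myc, the growth regulator, belonged here. It stood at 12.9, 12.9 and 12.4 CPM at the start, at 3.22, 3.46 and 4.09 in vehicle and at 121, 119 and 119 with imiquimod. The groups did not overlap, and the net change was 3.23 (SE 0.064) against 5.05 between the arms. In these genes a comparison with vehicle at 16 h alone gives a larger change than the comparison with the start.

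The 110 genes held near the start had a median vehicle change of -1.5, a median net change of 0.03 and a median of 1.5 between the arms. Of the 110, 3 were in the DNA replication list and 12 in the mitosis list. The 10 named below had the deepest vehicle fall among those with a mean of at least 10 CPM. Pclaf, the gene of a PCNA-binding factor (chromosome 9, 65890237 to 65903266), stood at 74.3, 71.3 and 71.9 CPM at the start, at 12.1, 10.9 and 9.75 in vehicle and at 72.4, 76.8 and 74.9 with imiquimod. The imiquimod and starting groups overlapped, and vehicle lay far below both. The net change was 0.04 (95% interval -0.05 to 0.14) and the vehicle change -2.73 (edgeR adjusted p = 5.89e-48). Lig1, the ligase gene that joins replicated DNA, stood at 43.2, 42.4 and 43.6 CPM, then 7.63, 7.00 and 8.27 in vehicle and 55.3, 55.3 and 58.4 with imiquimod. Its net change of 0.39 (interval 0.27 to 0.50) was called, so held near the start does not mean unchanged. Stil, a centriole duplication gene, changed by -0.23 from the start and -2.21 in vehicle, and Asf1b, a histone chaperone gene, by -0.28 and -2.35. Tk1, the thymidine kinase gene, changed by 0.41 and -2.32, Pkmyt1, a Cdk1-inhibiting kinase gene, by 0.32 and -2.12, and Ticrr, a replication initiation gene, by 0.33 and -2.09. Pbk, a mitotic kinase gene, Ncaph of the condensin complex and Cdca5, a sister chromatid cohesion gene, had net changes of 0.12, -0.13 and -0.09 that were not called, with intervals inside 1.5-fold.

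Whether these levels were held throughout or lost and regained was read from the 6 h libraries, a step chosen after the data were seen. Of the 110 genes, 62 were called lower than the start at 6 h with imiquimod (38.7% of all genes were), 12 of them by at least 2-fold (18.4% of all genes were lower by that much at 6 h). In 10 of the 12 the level at 16 h was again at least 2-fold above that at 6 h, a rise that follows from how the 12 were picked. Another 48 were not called lower at 6 h, and 31 of these were called higher than the start (36.7% of all genes were). Of the 31, 7 were higher by at least 2-fold (15.2% of all genes). From 6 h to 16 h with imiquimod, 61 of the 110 were called higher (31.9% of all genes) and 30 lower (31.8%). Pclaf stood at 50.7, 43.9 and 46.3 CPM at 6 h with imiquimod, between its starting and vehicle levels at 16 h. Top2a, the topoisomerase gene that untangles chromosomes, was at 348, 346 and 359 CPM at 6 h with imiquimod and at 352, 334 and 344 with vehicle, close to its start of 345, 343 and 332. It stood at 327, 320 and 308 with imiquimod at 16 h and at 90.6, 98.7 and 102 with vehicle.

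The cell cycle lists showed the same division between the arms. All 40 DNA replication genes tested fell in vehicle over 16 h (30% of all genes did), with a median of -1.67. All 40 were above the start with imiquimod, with a median of 0.78 (38.8% of all genes were higher). Of the 40, 8 reached a 2-fold net rise (14.5% of all genes did). Mcm3, a subunit gene of the replicative helicase, stood at 93.7, 90.7 and 90.6 CPM at the start, at 22.1, 22.7 and 21.7 in vehicle and at 201, 203 and 205 with imiquimod. The groups did not overlap, and the net change was 1.15 (SE 0.046) against 3.19 between the arms. Tyms, which makes thymidylate, rose by 1.48, Gins2, a helicase cofactor gene, by 1.23 and Orc1 of the origin recognition complex by 1.13. At 6 h with imiquimod, 24 of the 40 were called lower than the start and 6 higher (36.7% of all genes were higher), with a median of -0.30. All 40 were then higher at 16 h than at 6 h (31.9% of all genes), 26 of them by at least 2-fold (8.25%), with a median of 1.16.

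Mitosis genes ended lower. All 36 fell in vehicle (30% of all genes did), with a median of -1.21. With imiquimod 24 were below the start (36.8% of all genes), 3 above it (38.8%) and 9 not called, with a median of -0.28. Of the 36, 29 were above vehicle at 16 h (39.1% of all genes) and 12 were held near the start, where 110 of all 14876 genes were. Mki67, the proliferation marker gene, stood at 445, 441 and 460 CPM at the start, at 139, 140 and 144 in vehicle and at 266, 281 and 278 with imiquimod. The groups did not overlap, with imiquimod between the others, and the net change was -0.71 (SE 0.036). Cenpa, the centromeric histone gene, went lower with imiquimod than with vehicle, at 23.1, 23.4 and 22.2 CPM against 45.3, 45.6 and 37.9, from 78.8, 82.4 and 77.5 at the start. Kif23, Ccnb2 and Cenpf, which act in cytokinesis, mitotic entry and the kinetochore, changed by -1.45, -1.44 and -1.17. In vehicle at 6 h the mitosis genes had not fallen: 20 of 36 were called higher than the start (26% of all genes), none by 2-fold (3.4%), and 2 lower. Of the 40 replication genes, 38 were called lower (26.9%), 17 by at least 2-fold (4.03%). With imiquimod at 6 h, 21 of the 36 mitosis genes were called lower than the start (38.7% of all genes) and 6 higher (36.7%). Their median was -0.28, against 0.25 in vehicle at 6 h. From 6 h to 16 h with imiquimod, 19 were called lower (31.8%) and 7 higher (31.9%).

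**Figure D3:**
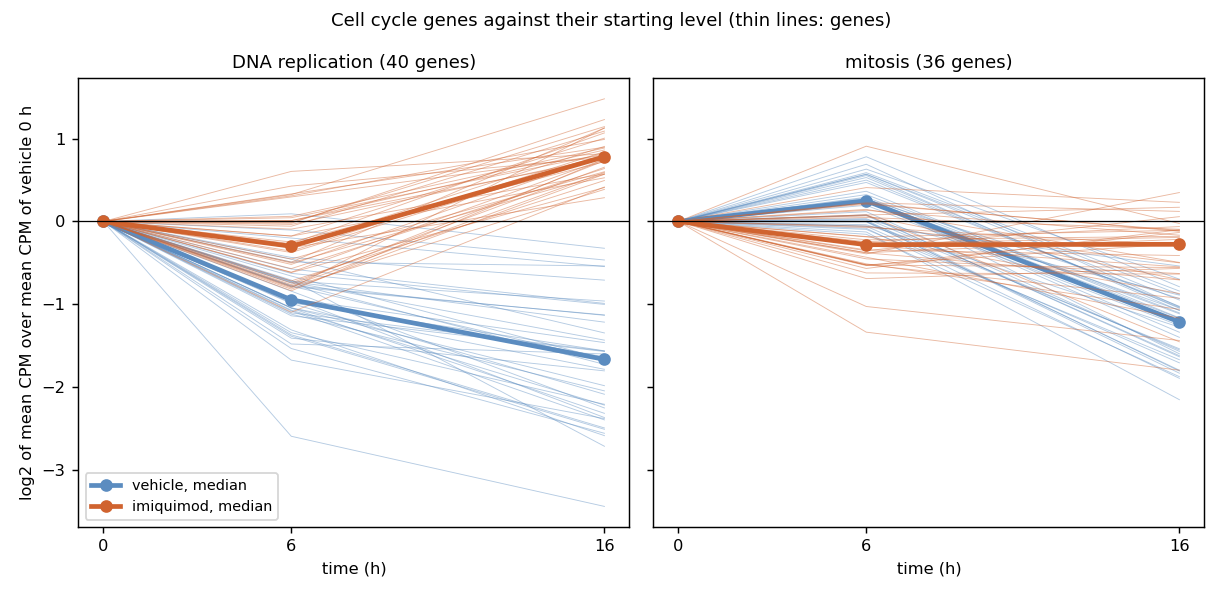
Log2 of the mean CPM over the mean CPM of vehicle at 0 h, by time in hours, for 40 DNA replication genes and 36 mitosis genes, in vehicle (blue) and imiquimod (orange). Thin lines are genes and thick lines medians. The replication genes part at both times, with imiquimod above vehicle. For the mitosis genes the imiquimod median lies below vehicle at 6 h and above it at 16 h.

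Promoters of a replication gene and a mitosis gene are shown with the letters sought in them. In Mcm5, a helicase subunit gene with a net change of 0.80 and a vehicle change of -2.09, capitals mark matches to E2F-like patterns (TTTGGCGC, TTTCCCGC or TTTCGCGC, both strands). In Top2a, capitals mark 6 CCAAT boxes (CCAAT, both strands). Mcm5 was marked for the E2F-like letters only, and its window also holds CCAAT, left in lower case. Both patterns were chosen after the values were seen.
Mcm5, GRCm38 chr8:75109259-75109508, plus strand: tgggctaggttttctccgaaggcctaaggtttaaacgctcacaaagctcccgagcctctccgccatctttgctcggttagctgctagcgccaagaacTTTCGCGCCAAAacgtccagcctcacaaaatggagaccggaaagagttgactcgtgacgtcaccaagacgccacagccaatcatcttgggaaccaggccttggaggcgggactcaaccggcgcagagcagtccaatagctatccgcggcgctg
Top2a, GRCm38 chr11:99024190-99024439, minus strand: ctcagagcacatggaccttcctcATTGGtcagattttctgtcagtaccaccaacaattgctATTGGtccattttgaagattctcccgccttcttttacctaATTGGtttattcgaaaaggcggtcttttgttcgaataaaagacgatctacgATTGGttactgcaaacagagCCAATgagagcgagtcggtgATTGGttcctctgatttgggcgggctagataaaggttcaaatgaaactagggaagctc

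The E2F-like letters were in 39.4% of 33 replication promoters of 300 bases, 6.67% of 30 mitosis promoters and 8.99% of the genes held near the start, against 4.10% of all. CCAAT was in 57.6%, 73.3% and 62.9% of the same sets and in 42.6% of all. These are descriptions of the windows.

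Slowed falls were few, and the name rests on levels at 16 h. At 6 h with imiquimod 14 of the 15 were already called lower than the start (38.7% of all genes), with a median of -1.92. Of these, 11 were lower by at least 2-fold (18.4%). From 6 h to 16 h with imiquimod, 4 were called higher (31.9%) and 4 lower (31.8%), with a median of 0.08. Of the 15 genes, Nr4a2, an orphan nuclear receptor gene, stood at 23.2, 21.1 and 24.1 CPM at the start, at 2.11, 2.13 and 1.65 in vehicle and at 8.55, 10.3 and 10.7 with imiquimod. Its net change was -1.21 (SE 0.1) and its vehicle change -3.53. Atf3, a stress-induced transcription factor gene, changed by -1.29 and -3.38, Per2 of the circadian clock by -1.48 and -2.83, and Slc16a6, a monocarboxylate transporter family gene, by -1.46 and -2.61. Hist1h1b, a linker histone gene, and Iqgap3, a scaffold gene, changed by -1.13 and -1.01 from the start.

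Immediate-early genes, which respond within minutes to handling or growth factor, fell in vehicle for 23 of 27 tested (30% of all genes did). The vehicle median was -1.30. With imiquimod 14 were below the start (36.8% of all genes) and 11 above (38.8%). Fosb of the AP-1 family fell furthest, from 164, 160 and 169 CPM to 0.643, 1.15 and 0.870 in vehicle and 0.146, 0 and 0.0801 with imiquimod, 6056 counts against 3 (ratio 2160, 739 to 10500). Klf4, Egr3 and Egr2, other early transcription factor genes, changed by -5.39, -4.98 and -4.38. Other members rose, among them Jun by 1.17, Dusp1, a MAP kinase phosphatase gene, by 2.02 and Dusp2 of the same family by 3.06.

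A smaller set of net changes was the same with and without imiquimod. By an interval within 1.5-fold between the arms, 55 genes rose and 48 fell at least 2-fold in both. Anxa3, an annexin gene, stood at 3.97, 3.62 and 3.63 CPM at the start, at 50.2, 42.7 and 43.8 in vehicle and at 48.8, 47.4 and 47.0 with imiquimod. The arms overlapped at 16 h, and the net change was 3.67 (SE 0.1). Slc4a8, a bicarbonate transporter gene, rose by 3.76, Papss2, a sulfate donor enzyme gene, by 2.95, H2-Eb2, a class II gene, by 2.58, and N4bp2l1 by 1.96. Olfr166, listed as an olfactory receptor, rose by 1.95. Arrdc3, an arrestin family gene, fell from 309, 313 and 297 CPM to 53.7, 51.1 and 56.0 in vehicle and 45.4, 44.7 and 44.6 with imiquimod. The arms lay close together but apart. Per1 of the circadian clock changed by -2.29 from the start and -2.06 in vehicle, Fosl2 by -2.35 and -2.15, Irs2, an insulin signalling adaptor gene, by -1.87 and -1.95, and the linker histone genes Hist1h1e and Hist1h1d by -1.92 and -1.69 from the start. Of 18 clock genes, 11 were below the start and 3 above, with a median of -0.64 and a vehicle median of -0.55.

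**Figure D4:**
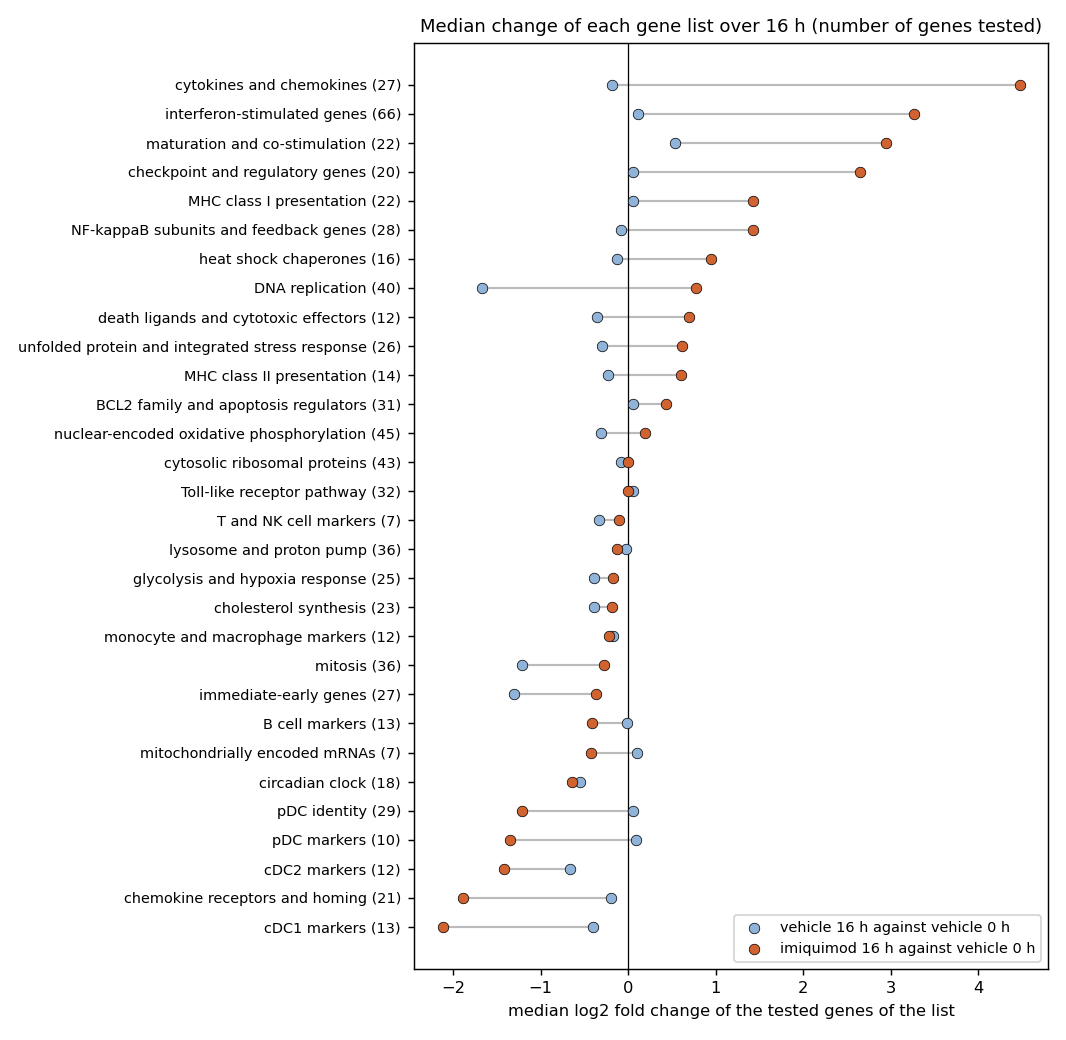
Median log2 fold change of the tested genes of each list with 5 or more genes, in vehicle (blue) and with imiquimod (orange) against vehicle 0 h, with the number of genes tested in brackets. DNA replication lies at -1.67 in vehicle and 0.78 with imiquimod, while the vehicle medians of cytokines and interferon-stimulated genes lie near 0. Of 27 cytokine and chemokine genes, 7 rose at least 2-fold in vehicle (5.59% of all genes) and 7 fell (6.22%).

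Repressed genes outnumbered induced ones, 1881 against 1613, and 1655 of them changed less than 2-fold or were not called in vehicle. Cd209a, one of the mouse DC-SIGN lectin homologues, had 1358 counts at the start, 755 in vehicle and 0 with imiquimod, at least 484-fold lower than the start over a floor of 3 counts per group. Hpgd, the prostaglandin-inactivating enzyme gene, had 824, 775 and 0, at least 294-fold lower. Hrh1, the histamine H1 receptor gene, went from 37.1, 38.3 and 38.3 CPM to 0.0731, 0.15 and 0.16, a net change of -8.11 (SE 0.19) with -0.42 in vehicle. Vipr1, a neuropeptide receptor gene, changed by -7.55 (vehicle -1.77), Hepacam2, an adhesion gene, by -6.68, Naaa, a lipid amide hydrolase gene, by -6.41, and Rnf150 by -6.05. Itga1, an integrin gene, changed by -6.03, Alox5, the leukotriene-forming lipoxygenase gene, by -5.86 (vehicle -3.56), and Plekha6 by -5.77. Cd28, the T cell co-stimulatory receptor gene, stood at 171, 182 and 177 CPM at the start, at 207, 198 and 209 in vehicle and at 3.44, 2.85 and 3.05 with imiquimod, a net change of -5.82.

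Some genes fell below the start although vehicle raised them, 74 in all. Cmah, a sialic acid hydroxylase gene, stood at 216, 236 and 227 CPM, rose to 509, 519 and 520 in vehicle and fell to 71.6, 81.6 and 75.6 with imiquimod. The net change of -1.57 (SE 0.044) was smaller than the -2.76 between the arms. Abca6, a lipid transporter family gene, changed by -5.14 on 309 and 9 counts, Lpl, the lipoprotein lipase gene, by -1.72, Ppm1e, a phosphatase gene, by -2.08, Rhoq, a small GTPase gene, by -1.37 and the noncoding RNA gene Mirt1 by -2.09. The 18 genes held near the start while vehicle rose included Adap2 (net -0.18, vehicle 1.21), Maml2, a Notch coactivator gene (0.03 and 1.05), Senp7, a SUMO protease gene (-0.07 and 1.04), and Zfp950, a zinc finger gene (-0.08 and 1.00). None of these 4 net changes was called, and each interval lay inside 1.5-fold. Slco5a1, a transporter family gene, was the named gene with a slowed rise, at 2.76 from the start against 4.42 in vehicle.

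More of the genes that define pDCs were below the start with imiquimod than in vehicle. Of 29 identity genes, 19 were below the start with imiquimod (36.8% of all genes) and 8 above (38.8%), with a median of -1.21. Repressed by the definition used here were 15 of the 29, against 1881 of all 14876 genes. In vehicle 7 were lower (30% of all genes) and 12 higher (28.4%), with a median of 0.05. Siglech, the pDC surface lectin gene (chromosome 7, 55768178 to 55778925), stood at 1110, 1120 and 1100 CPM at the start, at 1650, 1620 and 1630 in vehicle and at 168, 168 and 171 with imiquimod. The groups did not overlap, and vehicle lay above the start. The net change was -2.71 (SE 0.033, adjusted p = 5.97e-73), smaller than the -3.28 between the arms. Ccr9, the gut-homing receptor gene, changed by -2.45, Runx2, a transcription factor gene, by -2.08 and Cox6a2 by -2.89. Atp1b1 (-5.41), a sodium pump subunit gene, Cd209d (-5.58) and Upb1 (-4.24) were the lowest of the list.

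Tcf4, the master regulator of pDC fate, stood at 1420, 1530 and 1510 CPM at the start and at 727, 739 and 729 with imiquimod, a net change of -1.02 (SE 0.035). Irf8 changed by -0.23, Spib by 0.45 and Bcl11a by -0.02, which was not called. Bst2, the tetherin gene and a pDC marker, was not called either, at 0.09 (95% interval 0 to 0.18). Tlr7, the receptor of imiquimod, rose by 0.40, from 213, 225 and 221 CPM to 292, 290 and 287, with 0.31 in vehicle. Flt3, the receptor for the growth factor of the culture, changed by -0.89. The identity genes that rose were led by Cd8b1, from 28 counts to 2062 (net 6.08), Irf7 (3.45) and Ly6d (1.99).

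**Figure D5:**
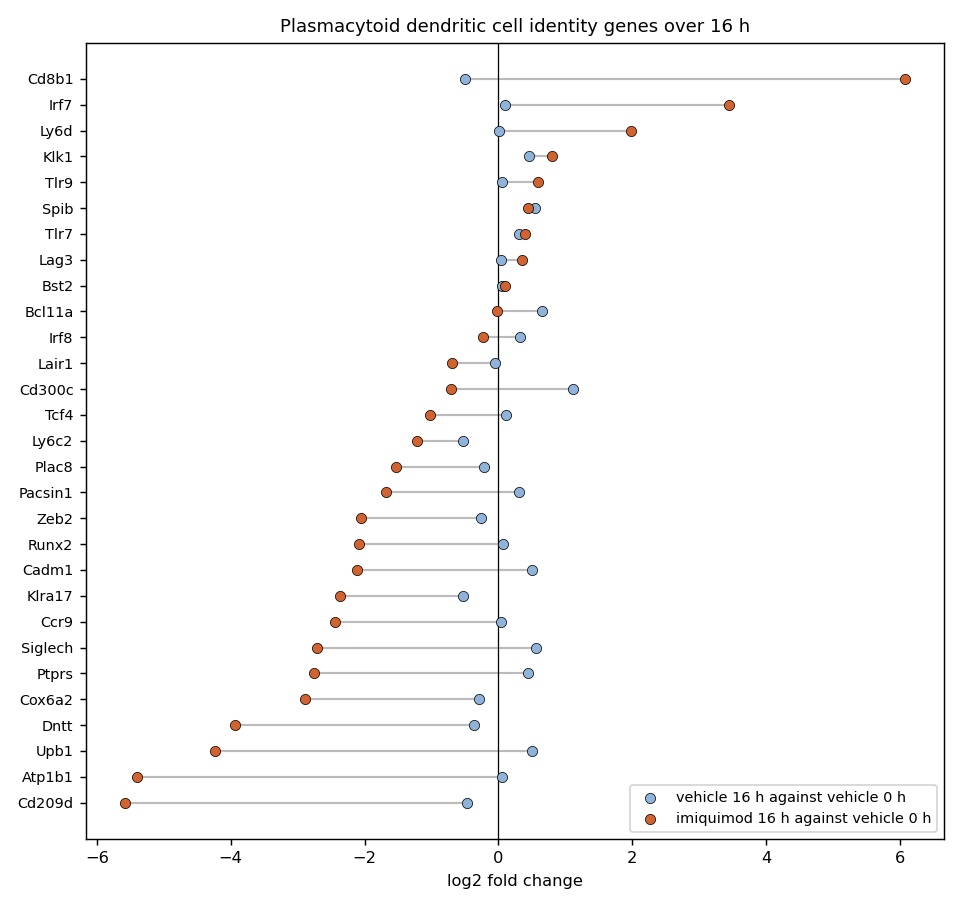
Log2 fold change against vehicle 0 h of 29 pDC identity genes, in vehicle at 16 h (blue) and with imiquimod at 16 h (orange). Vehicle values lie between -0.53 and 1.11, while the imiquimod values run from -5.58 to 6.08.

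Chemokine receptor and homing genes fell for 19 of 21, with a median of -1.89. Ccr2, the receptor for monocyte chemokines (chromosome 9, 124101950 to 124113557), stood at 1430, 1440 and 1430 CPM at the start, at 1690, 1760 and 1730 in vehicle and at 28.5, 28.9 and 28.1 with imiquimod. The net change was -5.65 (SE 0.047). Ccr1 and Cmklr1 changed by -5.59 and -4.69. The 2 that rose were Ccr7 and Cxcr5 (1.04), which both guide cells within lymphoid tissue. Lyz2, the lysozyme gene used as a myeloid marker, changed by -4.37 beside Ccr2. The markers of cDC1 fell for 11 of 13 and those of cDC2 for 9 of 12. Cd36, a scavenger receptor gene listed with cDC1, went the other way, from 21.3, 16.6 and 18.1 CPM to 875, 914 and 828 (net 5.54).

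Of 32 genes of the Toll-like receptor pathway, 13 were higher and 15 lower, with a median of 0, near the shares over all genes (38.8% and 36.8%). These counts were 14 higher and 13 lower without vehicle 0 h replicate 1. Tlr11 and Tlr3 changed by -4.82 and -3.92, and Ikbke, a kinase gene of the interferon arm, rose by 2.62. Lysosome genes were lower for 20 of 36 (36.8% of all genes) and higher for 11 (38.8%). Psap, the saposin precursor gene, went from 6230, 5940 and 5870 CPM to 1550, 1500 and 1570 (net -1.96), with vehicle at 6500, 6600 and 6480, while Cd63, a lysosomal tetraspanin gene, rose by 3.59, with 2.18 in vehicle.

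Of 16 heat shock chaperone genes, 12 were higher and 1 lower, with a median of 0.95. Hspd1, the mitochondrial chaperonin gene, stood at 84.0, 77.8 and 77.5 CPM at the start, at 61.7, 58.3 and 60.5 in vehicle and at 382, 342 and 353 with imiquimod (net 2.17, SE 0.041). Hsp90ab1 rose by 1.34 and Hsph1 by 1.93. Hspa1b, which has a near-identical copy, rose by 1.88 with 1.70 in vehicle. Of 26 unfolded protein and integrated stress response genes, 17 were higher and 8 lower. Asns, the asparagine synthetase gene, rose by 2.31 and Shmt2, a mitochondrial one-carbon enzyme gene, by 1.85, while vehicle changed by -1.28 and -0.67. Trib3 and Nupr1, both stress-induced regulators, rose by 1.91 and 2.54.

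Of 45 nuclear-encoded oxidative phosphorylation genes, 26 were higher and 3 lower, with a median of 0.19, after a vehicle median of -0.31 with 37 lower. Atp5g1 and Cycs, an ATP synthase subunit gene and the cytochrome c gene, rose by 1.02 and 1.00. Glycolysis and hypoxia genes were 11 higher and 11 lower of 25, near the 38.8% and 36.8% of all genes. Pfkfb3, the enzyme gene that stimulates glycolysis, rose by 2.95, with 1.29 in vehicle, and Egln3, an oxygen sensor gene, changed by -2.69. Cholesterol synthesis genes were 12 lower and 7 higher of 23, and Idi1, an isoprenoid enzyme gene, rose by 1.19. Cytosolic ribosomal protein genes were 13 higher and 11 lower of 43, a split that turned to 8 higher and 19 lower when scaled by library totals, to 13 and 15 when only the 3 groups were fitted and to 9 and 18 against the untreated cells at 0 h. Of 7 mitochondrial mRNAs, mt-Nd4, mt-Cytb and mt-Nd5 were lower (-0.74, -0.73 and -0.55) and mt-Nd6 higher (0.64). The call of mt-Nd5 was lost without imiquimod 16 h replicate 1 (adjusted p = 0.0713) and without vehicle 0 h replicate 3 (0.0681).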

How the data were processed

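Libraries were directional, made from total RNA after rRNA removal and read as pairs of 75 bases, per the labels' protocols. The authors deposited raw read counts per gene for 18 libraries, aligned with STAR to mm10, per the submitters' processing notes. The counter, its strand setting and the annotation release are not given in the sources used here, so reads of overlapping or antisense genes may be shared. Of the gene identifiers, 97.8% were in GENCODE M21 (GRCm38, the assembly of mm10), which gave the coordinates.

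All 18 libraries (6 groups of 3, between 10609741 and 13447018 counts) were fitted in edgeR 4.0.16 (R 4.3.3) with filterByExpr (minimum count 10), TMM scaling and the robust quasi-likelihood test. Genes with a Benjamini-Hochberg adjusted p under 0.05 were called, in each comparison over all 14876 tested genes. Intervals of 95% for log2 fold changes are from limma-voom 3.58.1. CPM values use TMM library sizes and are not per length, so levels are compared within a gene only. Ratios on 3 or fewer counts carry exact intervals, and ratios on 0 counts use a floor of 3 counts per group; both cover counting error only. Scripts were tested on simulated counts with planted changes of 2 and 3 on the log2 scale. All planted induced and repressed genes that were tested were recovered. Of genes planted as held while vehicle fell, 17 of 24 and 24 of 25 tested were recovered at the 2 sizes. Where vehicle rose these were 22 and 18 of 25, so the rule for held genes missed some members. Of 14197 unchanged genes, 6 were called in the net comparison.

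Named genes were the 12 highest and 12 lowest net changes with a mean of at least 10 CPM, 6 to 10 of each class, up to 4 of each list and a panel of pathway genes; gene models and pseudogenes were left out. Other list members were named with their values seen, and the 6 h comparisons and 2 promoter patterns were added after the data were seen. The comparison, the gene lists and the panel were chosen with earlier results of these data known. Alternatives were DESeq2 1.42.0 and its size factors, library totals, 2 other filters, a replicate block, fewer groups, untreated cells as the start and no rRNA genes. Each library of imiquimod 16 h, vehicle 0 h and vehicle 16 h was also left out. Same-numbered libraries did not deviate together (correlations from -0.01 to 0.03 over genes).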

Additional observations from a re-analysis of the deposited data

How the results depend on the processing

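Under the alternatives chosen with the design, all 12 counts of changed genes and gene classes stayed within 1.5 times their value. Each library of imiquimod 16 h, vehicle 0 h and vehicle 16 h was left out in turn. These fits tested 15128 to 15192 genes, against 14876 in the main fit. Genes higher than the start then numbered 5620 to 5943 and lower 5297 to 5523. Those changed at least 2-fold numbered 2193 to 2268 higher and 2443 to 2498 lower. These 2-fold ranges, and the induced range that follows, lie above the main counts of 2157, 2426 and 1613. Induced genes numbered 1636 to 1690, genes held near the start while vehicle fell 102 to 115, slowed falls 13 to 19, repressed genes 1873 to 1914, genes held while vehicle rose 12 to 19, slowed rises 10 to 17, and shared culture changes 44 to 57 higher and 40 to 48 lower. With the replicate number as a block, 5739 genes were higher and 5449 lower, 1611 were induced, 110 held near the start and 1882 repressed. With scaling by library totals, the median net change of all genes was -0.05 and 47.1% of called genes were higher, against 51.3%.

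Class sizes depended on their limits, in 2 settings chosen after seeing the data. With near the start meaning within 2-fold, 244 genes were held while vehicle fell and 74 while it rose, and culture changes were 138 higher and 110 lower. With a change counted from 1.5-fold, 2735 genes were induced, 276 held while vehicle fell, 74 slowed in their fall, 2859 repressed, 149 held while vehicle rose and 33 slowed in their rise, with 180 and 143 culture changes. No named gene reversed its direction. Of their values under all settings, 3457 had the same call, 14 gained one (Ncaph, Bst2, Adap2, Senp7, Zfp950 and Pbk, with net changes of at most 0.2 up or -0.24 down) and 2 lost one, both for mt-Nd5. Genes with few counts at the start, such as Il6 with 7, limit the precision of the largest folds.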
